A study of Mus musculus with 15 samples.

Results

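The genes described here are the 47 mouse genes that signal or repair DNA breaks, from the sensors that bind a broken end to the enzymes that rejoin it. They were chosen by name for what their proteins do and not by their values, but with earlier results of these data known. All 47 were found among the 48440 genes of the count table. RNA was sequenced from primary lung fibroblasts of C57BL/6 mice, with 3 strains of cells for each genotype, all grown at 3% O2. The groups of 3 libraries were Atm+/+ cells at passage 2, Atm-/- cells at passage 2, Atm+/+ cells at passage 8, Atm-/- cells at passage 8, and irradiated Atm+/+ cells labelled passage 2. The irradiated cells received 10 Gy of X-rays and were harvested 10 days later, as a control in which senescence is induced by stress. No unirradiated library was labelled as kept for the same 10 days. The labels do not say which part of Atm is deleted, which libraries came from the same strain, or the sex of the mice.

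A double-strand break is bound by the MRN complex of Mre11a, Rad50 and Nbn, which activates the kinase ATM. ATM phosphorylates the histone variant H2AX around the break, Mdc1 binds the mark, and the ubiquitin ligases Rnf8 and Rnf168 then prepare the chromatin for either Trp53bp1 or Brca1. Trp53bp1 favours direct end joining by the Ku, Xrcc4 and Lig4 machinery, whereas Brca1, Brca2 and their partners carry out homologous recombination in cells that have a replicated copy to use. Chek1 and Chek2 carry the signal to the cell cycle, and the Fanconi anaemia proteins clear crosslinks at replication forks.

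Library totals were between 13.6 and 39.2 M counts. When all libraries were thinned to the same depth, reads were found for 17226 genes in replicate 3 of Atm+/+ passage 2, for 15037 in replicate 3 of Atm-/- passage 8 and for 20101 or more in the remaining 13. In this pair of libraries, which stood apart, 3 and 9 of the 47 genes had no reads, and in the other 13 libraries every one of the 47 had reads. Results that rest on this pair are given with all 15 libraries and with the other 13. Atm itself lay between 0.873 and 3.10 CPM (counts per M counts, normalised between libraries) over the 15 libraries, and its level did not differ between genotypes at either passage (edgeR adjusted p = 0.883 and 0.788). Counts over the whole gene cannot check the genotype while the deleted part is not known. All 10 lung fibroblast markers exceeded 1 CPM in every group, with a summed level of 9512 to 13404 CPM in Atm-/- passage 8 and of 22860 to 36368 CPM elsewhere. Macrophage markers summed to 913 to 3515 CPM in the passage 2 libraries, to 35.2 to 98.0 CPM in the passage 8 libraries and to 1247 to 2240 CPM in the irradiated ones. Their part in the results was not tested, and in such bulk RNA fewer cells of a type and less RNA per cell cannot be told apart.

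All 47 genes passed the filter on low counts and were tested among 18167 genes with edgeR's quasi-likelihood test, adjusted by Benjamini and Hochberg over all of them. A gene is said to have risen or fallen where this adjusted p was under 0.05. Counts at an unadjusted p under 0.05 are given without the share of all genes at that threshold and are not read as results. CPM values are listed for replicates 1, 2 and 3 in this order, and fold changes are log2 values with their standard error (SE). Each genotype has 3 strains of cells. Which libraries of different groups share a strain is not known, so the main fit does not pair them.

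Per gene length, in TPM (transcripts per M transcripts), the 47 genes spanned a wide range of levels. H2afx, which encodes H2AX, had the highest mean over all 15 libraries at 39.1 TPM. It was followed by Rad9a of the 9-1-1 checkpoint clamp at 15.4 TPM and the Ku subunit Xrcc6 at 13.6 TPM. The lowest means were those of Atrip, the partner of the kinase ATR, at 0.0677 TPM, of the end-joining polymerase Polq at 0.202 TPM and of the Trp53bp1 effector Rif1 at 0.372 TPM. Atrip shares 1147 of its 7152 exon bases with Trex1, so reads of the pair may not have been assigned. In Atm+/+ passage 2 cells 17 of the 47 group means were under 1 TPM and 6 were at least 10 TPM, and in the irradiated cells the numbers were 19 and 8.

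Irradiation gave the most calls among the 47 genes. Compared with Atm+/+ passage 2 cells, 9 had fallen and 2 had risen 10 days after X-rays, which is 23.4% of the 47. The same test called 27.5% of all 18167 genes, so the share was near the background and is not a property of these genes. In the downward direction the background was 16.5% and in the upward direction 11.0%. Those that fell were Rad54l, Exo1, Rad51ap1, Brca1, Chek1, Rnf8, H2afx, Parp1 and Mdc1, and those that rose were Rad17 and Trp53bp1. The median log2 fold change was -0.29 over the 47 and -0.01 over all genes. Irradiated and unirradiated libraries were fully separate for 8 genes that were higher and 16 that were lower, where 27.3% and 27.7% of all genes did not overlap in these directions.

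**Figure D1:**
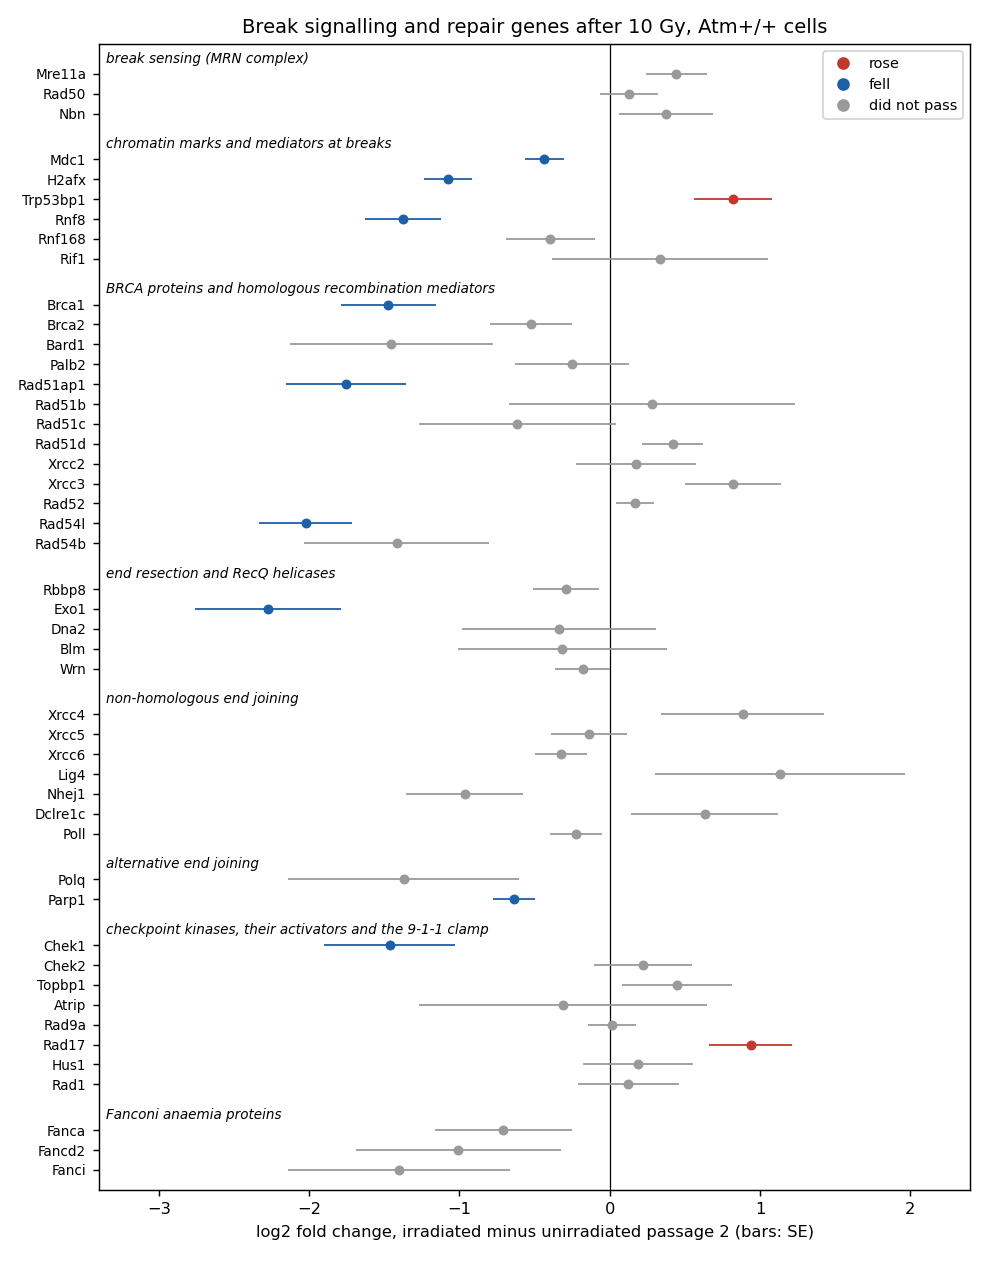
Log2 fold change of each of the 47 genes in irradiated against unirradiated passage 2 Atm+/+ cells, grouped by role, with the horizontal bars showing the SE. Blue points fell, red points rose and grey points did not pass, and Exo1 at -2.27 and Rad54l at -2.02 lie farthest to the left.

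Among the genes of homologous recombination, 3 of 13 fell and none rose in edgeR, where 16.5% of all genes fell and 11.0% rose. Rad54l encodes a DNA-dependent motor protein of this pathway, and its level was 2.64, 3.31 and 4.30 CPM in Atm+/+ passage 2 cells and 0.749, 0.920 and 0.838 CPM after irradiation. Every irradiated library was below every other library of the series. The change was -2.02 (SE 0.31, n = 3), with an edgeR adjusted p of 0.000711, and it passed in every alternative tried. Rad51ap1, an accessory factor of homologous recombination, was at 4.38, 6.57 and 1.84 CPM and at 1.11, 1.49 and 1.20 CPM after irradiation, a change of -1.75 (SE 0.40, edgeR adjusted p = 0.00705) that did not pass in any of the 3 limma fits or with only the groups compared. Replicate 3 of the unirradiated cells, from the pair that stood apart, was the lowest of its group and still above all irradiated libraries. Brca1, which directs repair into homologous recombination, was at 3.54, 4.85 and 3.29 CPM and at 1.63, 1.18 and 1.40 CPM after irradiation. Its change was -1.47 (SE 0.32, edgeR adjusted p = 0.00515), with no overlap between the groups, and it was not called in either limma fit of the full TPM table.

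The other 10 genes of this role did not pass in edgeR. DESeq2 called Bard1 lower and Xrcc3 higher (adjusted p = 0.0268 and 0.0294), and limma on log2(TPM + 1) called Xrcc3, Rad51d and Rad52 higher (adjusted p = 0.0135, 0.0181 and 0.0397). DESeq2 called 37.0% of all genes. The limma fit called 32.7% of them, and their median change in it was 0.32. Bard1, the partner of Brca1, was at 4.53, 4.79 and 3.58 CPM and at 1.39, 1.72 and 1.59 CPM after irradiation, again without overlap, but its adjusted p was 0.121. Bard1 had no reads in Atm-/- passage 8 replicate 3, which shares in the estimate of the spread, and without the pair of libraries that stood apart the change was -1.52 with an edgeR adjusted p of 0.0004. Rad54b, a relative of Rad54l, was at 2.89, 1.97 and 0.532 CPM and at 0.542, 0.897 and 0.587 CPM, so the groups overlapped through replicate 3. It shares 35.8% of its exon bases with Fsbp. Xrcc3, which also acts in homologous recombination, was at 4.59, 5.48 and 3.00 CPM and at 7.51, 7.43 and 8.19 CPM after irradiation, with a change of 0.82 and an adjusted p of 0.0713. Rad52 was nearly level, between 14.0 and 14.7 CPM and between 15.8 and 16.4 CPM after irradiation, where the lowest irradiated library was above the highest unirradiated one.

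Of the 5 genes of end resection and RecQ helicases, Exo1 fell, where 16.5% of all genes fell. Exo1 (chr1:175880581-175913489, plus strand, GRCm38) is a nuclease that trims the broken end to a single strand, and its level was 2.45, 3.67 and 1.65 CPM in Atm+/+ passage 2 cells and 0.568, 0.779 and 0.252 CPM after irradiation. The irradiated libraries were below all 12 others, and the change of -2.27 (SE 0.49, edgeR adjusted p = 0.00512) was the largest of the 47 and did not pass in either limma fit of the full TPM table. The other resection nuclease, Dna2, the helicases Blm and Wrn, and Rbbp8, which starts resection, had changes of -0.34, -0.32, -0.18 and -0.29 and did not pass in edgeR. Their adjusted p ran from 0.337 to 0.754.

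Promoters of genes that fell or rose after irradiation are shown because E2F motifs and CCAAT boxes are common in genes of the cell cycle, and several of these genes act on replicated DNA. RefSeq promoters (GRCm38.p6) were matched for 34 of the 47 genes, and the 140 bases before each start were searched on both strands for the CCAAT box (letters CCAAT, or ATTGG on the other strand), the E2F motifs TTTCCCGC, TTTGGCGC, TTTCGCGC and TTTGCCGC, and the cell cycle homology element TTTGAA. The motifs were chosen with the expression values known. Of the 11 genes that fell or rose, 9 have a promoter in the table, and the 6 whose window holds no annotated exon are shown. The windows of Rnf8 and Chek1, which fell, and of Rad17, which rose, overlap annotated exons and hold none of the motifs. The sequences run 5′ to 3′ on the strand of the gene, with the motifs that were found in capitals.
Rad54l: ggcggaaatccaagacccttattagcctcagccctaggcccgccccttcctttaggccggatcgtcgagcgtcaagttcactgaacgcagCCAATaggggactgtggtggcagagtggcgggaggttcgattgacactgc
Rad51ap1: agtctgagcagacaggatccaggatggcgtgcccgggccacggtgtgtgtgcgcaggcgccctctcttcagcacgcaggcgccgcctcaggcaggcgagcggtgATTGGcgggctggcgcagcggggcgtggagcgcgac
Brca1: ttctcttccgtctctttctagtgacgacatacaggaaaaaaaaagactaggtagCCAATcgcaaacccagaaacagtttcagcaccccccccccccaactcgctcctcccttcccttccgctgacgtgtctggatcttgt
Mdc1: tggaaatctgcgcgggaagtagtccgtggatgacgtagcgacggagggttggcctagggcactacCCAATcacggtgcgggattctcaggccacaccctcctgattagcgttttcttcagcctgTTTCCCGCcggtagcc
Parp1: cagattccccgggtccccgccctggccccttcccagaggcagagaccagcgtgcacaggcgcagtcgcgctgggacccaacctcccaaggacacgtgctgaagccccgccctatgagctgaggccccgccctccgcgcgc
Trp53bp1: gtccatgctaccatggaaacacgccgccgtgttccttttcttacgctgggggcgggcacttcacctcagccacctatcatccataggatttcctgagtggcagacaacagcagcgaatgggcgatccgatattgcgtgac

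These windows lie at chr4:116123691-116123830 on the minus strand for Rad54l, chr6:126939588-126939727 on the minus strand for Rad51ap1, chr11:101551956-101552095 on the minus strand for Brca1, chr17:35841358-35841497 on the plus strand for Mdc1, chr1:180568751-180568890 on the plus strand for Parp1 and chr2:121271408-121271547 on the minus strand for Trp53bp1. The CCAAT box starts 50 bases before the start of Rad54l, 36 before Rad51ap1, 86 before Brca1 and 75 before Mdc1. It was found in 4 of the 7 genes that fell and have a promoter in the table, not in Parp1, Rnf8 or Chek1, in neither Rad17 nor Trp53bp1, which rose, in 11 of the 34 genes (32.4%) and in 24.2% of all 27025 promoters. An E2F motif was found in 3 of the 34, Mdc1, Topbp1 and Xrcc6, and in 1.18% of all promoters. TTTGAA was found in none of the 34 windows and in 8.52% of all. A match describes the letters of this window and nothing about binding.

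Genes of the chromatin response to breaks moved in both directions. H2afx (chr9:44334694-44336077, plus strand) was at 49.2, 35.7 and 44.2 CPM in Atm+/+ passage 2 cells and at 20.3, 20.7 and 20.3 CPM after irradiation. The irradiated libraries were the lowest of the series and nearly equal to each other, and the change was -1.07 (SE 0.16, edgeR adjusted p = 0.000584). Rnf8, the ubiquitin ligase recruited by Mdc1, was at 13.5, 9.45 and 17.5 CPM and at 4.002, 5.45 and 6.12 CPM after irradiation, without overlap, a change of -1.38 (SE 0.25, edgeR adjusted p = 0.00214). Both calls held in every alternative tried. H2afx shares 10.2% of its exon bases with an antisense miRNA gene and Rnf8 13.2% with the gene model Gm28043. Mdc1 was at 20.8, 21.2 and 19.4 CPM and at 14.7, 16.6 and 14.1 CPM, a smaller change of -0.43 (SE 0.13, edgeR adjusted p = 0.0275) that was lost in 10 of the 15 fits without 1 library.

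Trp53bp1 encodes 53BP1, which protects broken ends from resection, and it rose. Its level was 17.8, 19.4 and 9.29 CPM in Atm+/+ passage 2 cells and 27.8, 28.3 and 26.3 CPM after irradiation, with a change of 0.82 (SE 0.26, edgeR adjusted p = 0.0321). Replicate 3 of the unirradiated cells was far below the other 2 libraries, and without the pair that stood apart the change was 0.61 (SE 0.13, edgeR adjusted p = 0.00197). The call was lost in 5 of the 15 fits without 1 library, those that left out replicate 1 or 3 of Atm+/+ passage 2 (adjusted p = 0.0501 and 0.0631) or any irradiated library (0.0597 to 0.071). It was also lost with the replicate number as a block (0.0612) and with only the groups compared (0.064). Trp53bp1 shares 15.0% of its exon bases with Tubgcp4 on the other strand, and whether reads were counted by strand is not given in the sources used here. Rnf168, the ligase that acts after Rnf8, and Rif1 had changes of -0.40 and 0.33 with adjusted p of 0.333 and 0.75.

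Among the MRN genes and the genes of non-homologous end joining edgeR called none, where it called 27.5% of all genes. With so few genes, this is not read as a property of either role. For Mre11a, Nbn and Rad50 the changes were 0.44, 0.37 and 0.13, none of the 3 passed in edgeR (1 at an unadjusted p under 0.05) or DESeq2, and Mre11a passed as higher in limma on log2(TPM + 1). Of the 7 genes of non-homologous end joining none passed in edgeR (1 at an unadjusted p under 0.05), 1 passed in DESeq2 (Nhej1, lower) and 1 in limma (Lig4, higher). DESeq2 called 37.0% of all genes and limma on log2(TPM + 1) 32.7%. For Nhej1, replicate 3 of Atm+/+ passage 2, from the pair that stood apart, had 293 of 23.6 M counts. Replicates 1 and 2 had 233 of 33.0 M and 204 of 34.2 M. Lig4, the ligase that seals the joined ends, was at 3.01, 5.53 and 0 CPM in Atm+/+ passage 2 cells and at 6.56, 6.61 and 5.87 CPM after irradiation. All 3 irradiated libraries were above the other 12, but with the library at 0 the change of 1.14 had an SE of 0.83 and an adjusted p of 0.321. Without the pair of libraries it was 0.61 (SE 0.23, edgeR adjusted p = 0.0389). Xrcc4, the partner of Lig4, was at 4.90, 11.1 and 0.967 CPM and at 10.6, 11.0 and 9.98 CPM, and the groups overlapped. The Ku subunits Xrcc5 and Xrcc6 had changes of -0.14 and -0.33 that did not pass.

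For alternative end joining, Parp1 was at 37.0, 35.1 and 43.5 CPM and at 25.5, 24.7 and 24.1 CPM after irradiation. The irradiated libraries were below all 12 others, and the change was -0.64 (SE 0.14, edgeR adjusted p = 0.00575), which did not pass in any of the 3 limma fits. The calls of Parp1, Exo1, Rad51ap1 and Brca1 held in all 15 fits without 1 library. Polq was at 1.43, 1.67 and 0.532 CPM and at 0.336, 0.543 and 0.531 CPM, overlapping through replicate 3 of the unirradiated cells. Its change of -1.37 did not pass (adjusted p = 0.194), and without the pair of libraries it was -1.67 (edgeR adjusted p = 0.00148).

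Of the 8 checkpoint genes, 1 rose and 1 fell in edgeR, where 11.0% of all genes rose and 16.5% fell. Rad17 loads the 9-1-1 clamp, and its level was 9.31, 14.2 and 4.89 CPM in Atm+/+ passage 2 cells and 16.8, 21.4 and 16.4 CPM after irradiation. The groups did not overlap, and the change was 0.94 (SE 0.28, edgeR adjusted p = 0.025), or 0.68 without the pair of libraries (edgeR adjusted p = 0.00548). The call was lost without replicate 1 of Atm+/+ passage 2, without irradiated replicate 2 and with only the groups compared (adjusted p = 0.0712, 0.0803 and 0.0993). Chek1, the kinase activated by ATR, was at 1.80, 1.86 and 5.56 CPM and at 0.955, 1.32 and 1.03 CPM after irradiation. Its change of -1.46 (SE 0.44, edgeR adjusted p = 0.025) depended on replicate 3 of the unirradiated cells: without that library it was -0.67 with an edgeR adjusted p of 0.154. The call was also lost without irradiated replicate 1, 2 or 3 (adjusted p = 0.106, 0.0639 and 0.097). In the 13 libraries Chek1 changed by -0.68, with an edgeR adjusted p of 0.0486. Chek2, the kinase activated by ATM, was at 12.7, 11.5 and 4.74 CPM and at 10.8, 12.3 and 10.7 CPM, and the groups overlapped. The clamp subunits Rad9a, Hus1 and Rad1 had changes of 0.01, 0.19 and 0.12.

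None of the 3 Fanconi anaemia genes passed in edgeR, DESeq2 or limma, or at an unadjusted p under 0.05. Of all genes, edgeR called 27.5%, DESeq2 37.0% and limma on log2(TPM + 1) 32.7%. With only 3 genes, this is not read as a property of the role. Fancd2, which is loaded on DNA at crosslinks, was at 1.68, 2.88 and 1.35 CPM in Atm+/+ passage 2 cells and at 0.929, 0.873 and 1.15 CPM after irradiation, without overlap. Fanca was at 2.48, 3.83 and 0.726 CPM and at 1.47, 1.37 and 1.51 CPM, and replicate 3 of the unirradiated cells was below the irradiated ones. Changes of Fanca, Fancd2 and its partner Fanci were -0.71, -1.01 and -1.40, with adjusted p from 0.168 to 0.282. In the fit of 13 libraries all 3 fell, by 1.08, 1.17 and 1.37 on the log2 scale (edgeR adjusted p of 0.00201, 0.00458 and 0.0301). That fit called 23.3% of all genes as lower.

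**Figure D2:**
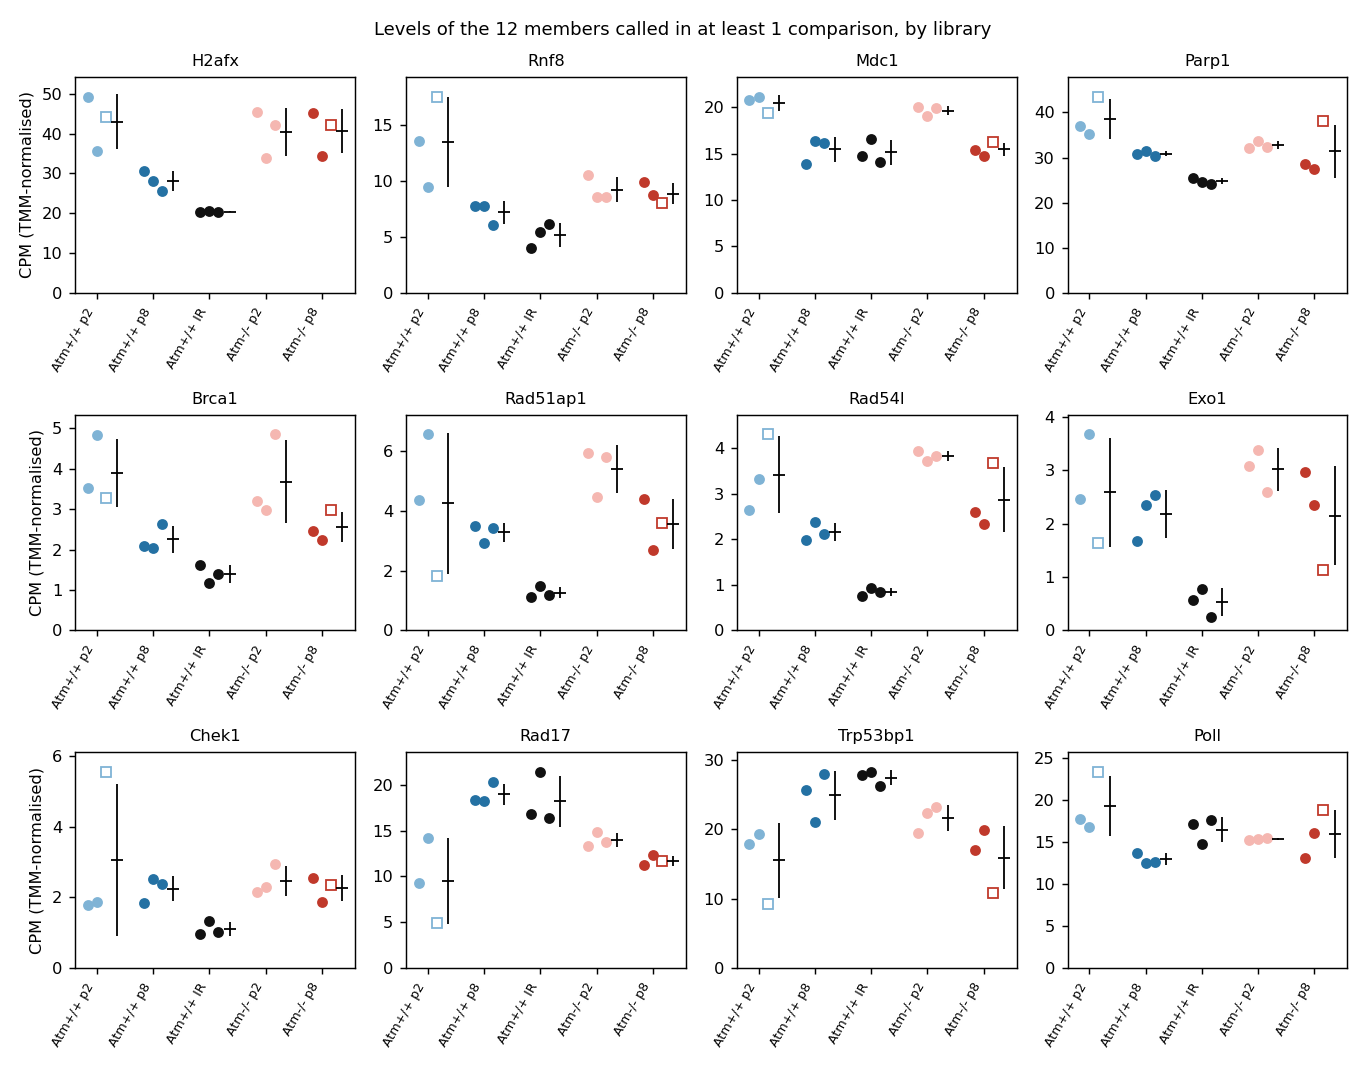
Normalised CPM per library for the 12 genes that rose or fell in at least 1 comparison, by group, with the cross bar and vertical line beside the points giving the mean and SD of 3 libraries. Open squares are the libraries that stood apart (Atm+/+ passage 2 replicate 3 and Atm-/- passage 8 replicate 3); the black irradiated points are the lowest of the series for H2afx, Rad54l, Rad51ap1, Brca1, Exo1, Chek1 and Parp1.

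Without the pair of libraries that stood apart, 21 of the 47 genes were called after irradiation, 4 higher and 17 lower, where 46.3% of all 18495 genes tested were called (22.9% higher and 23.3% lower). All 11 calls of the 15 libraries were among them with the same direction, and the fold changes of 41 of the 47 genes kept their sign. The 13 libraries are part of the 15, so kept calls and signs are not a separate test. The shares of all genes that kept theirs are not given. The added calls were Bard1, Rad54b, Brca2, Polq, Rbbp8, Fanca, Fancd2 and Fanci, which fell, and Xrcc3 and Lig4, which rose. In limma on log2(TPM + 1), which used the deposited TPM without further scaling between libraries, the median of all genes was 0.32. The split of calls there was 7 higher and 3 lower. Changes in this fit are not centred on 0, so its higher calls are to be read against that median. That fit holds 45 of the 47 genes, without Atrip and Polq, and their median was 0.13 there, below that of all genes as in edgeR. Leaving out 1 library moved the edgeR count to 20 without Atm-/- passage 8 replicate 3, where 44.4% of all genes were called, and to 7 without irradiated replicate 2, where 14.5% were.

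**Figure D3:**
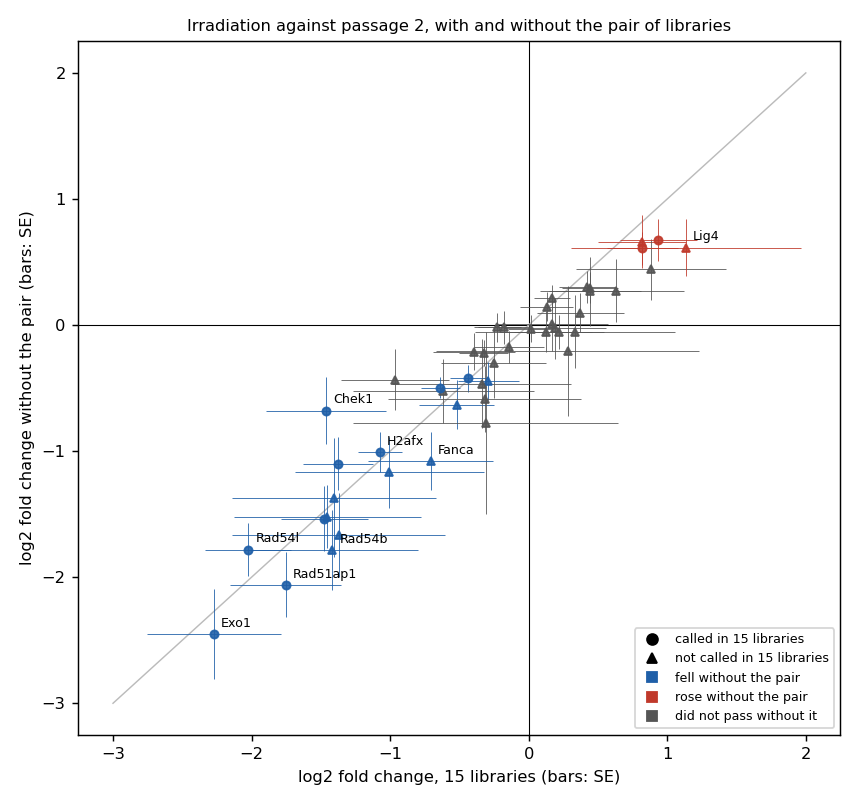
Log2 fold change of the 47 genes in irradiated against unirradiated passage 2 cells, fitted with 15 libraries (horizontal axis) and with 13 (vertical axis), with SE as bars in both directions and the grey line marking equality. Circles were called with 15 libraries; the 21 coloured points were called with 13, and Chek1 moves from -1.46 to -0.68.

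All 3 irradiated libraries lay below all 12 unirradiated libraries for 7 of the 47 genes (Brca1, Chek1, Exo1, H2afx, Parp1, Rad51ap1 and Rad54l), where 7.22% of all genes did so, and above them for Lig4, where 5.04% of all genes did so. Those 12 include both genotypes and both passages. Against the 10 that remain without the pair, 10 of the 47 genes were lower in all irradiated libraries (10.3% of all genes), adding Fanca, Fancd2 and Polq, and 3 were higher (6.14% of all genes), Lig4, the end-trimming nuclease Dclre1c and Rad51d of homologous recombination. Genes of proliferation moved with this comparison. Of 20 such genes 17 fell after irradiation with a median change of -1.90, and their summed level was 469 to 647 CPM in Atm+/+ passage 2 and 158 to 178 CPM in the irradiated cells. The proliferation marker Mki67 changed by -3.21 and the topoisomerase Top2a by -2.57. Marker sums of other cell types differed as well. Smooth muscle and pericyte markers summed to 3506 to 4536 CPM in Atm+/+ passage 2 and to 13734 to 15912 CPM in the irradiated cells. Endothelial markers summed to 560 to 978 CPM and to 93.5 to 272 CPM in the same groups. Sums of fibroblast and macrophage markers overlapped between these groups. The part of these cell types and of the proliferation genes in the changes of the repair genes was not tested.

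Against Atm+/+ passage 8 cells, 2 of the 47 genes differed in the irradiated cells, where the test called 6.89% of all genes. They were Rad54l and Exo1, both lower. Rad54l was at 1.98, 2.37 and 2.11 CPM at passage 8, above all irradiated libraries, and changed by -1.36 (SE 0.31, edgeR adjusted p = 0.0141). Exo1 was at 1.66, 2.34 and 2.53 CPM at passage 8, also without overlap, and changed by -2.02 (SE 0.48, edgeR adjusted p = 0.0204). Each of these calls was lost in 4 of the 15 fits without 1 library. Of the 47 genes, 0 were called where replicate 2 of Atm+/+ passage 8 or replicate 1 or 3 of the irradiated cells was left out, 1 where replicate 3 of Atm+/+ passage 8 or irradiated replicate 2 was, and 5 where either library of the pair that stood apart was. The shares of all genes called ranged from 3.86% to 4.52% in the fits that gave 0 or 1, and were 9.55% and 12.6% in those that gave 5. Rad51ap1 came next, with -1.37 and an adjusted p of 0.056. Libraries did not overlap for 4 of the 47 that were higher and 17 that were lower, against 22.8% and 25.6% of all genes. Of the 20 proliferation genes 8 fell in the same comparison, with a median of -1.38 and a change in Mki67 of -2.07. This comparison shares its irradiated libraries with the previous one.

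With passage, 5 of the 47 genes (10.6%) were called in Atm+/+ cells, where 23.3% of all genes were called. From passage 2 to passage 8 H2afx, Rnf8, Poll and Mdc1 fell and Rad17 rose, against a background of 13.5% lower and 9.80% higher. H2afx fell from the levels given for passage 2 to 30.7, 28.1 and 25.6 CPM, without overlap, a change of -0.61 (SE 0.16, edgeR adjusted p = 0.0143). Rnf8 was at 7.78, 7.74 and 6.01 CPM at passage 8, below all passage 2 libraries, with -0.91 (SE 0.25, edgeR adjusted p = 0.0193). Rad17 was at 18.4, 18.2 and 20.3 CPM, above all passage 2 libraries, with 0.99 (SE 0.28, edgeR adjusted p = 0.0212).

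Poll, a polymerase that fills gaps in end joining, was at 17.7, 16.8 and 23.4 CPM at passage 2 and at 13.7, 12.5 and 12.6 CPM at passage 8. Its change was -0.57 (SE 0.17, edgeR adjusted p = 0.0299), and no libraries overlapped. In the irradiated cells Poll was at 17.1, 14.8 and 17.6 CPM, a change of -0.23 from passage 2 that did not pass. Mdc1 was at 13.9, 16.4 and 16.1 CPM at passage 8 and changed by -0.40 (edgeR adjusted p = 0.0426). The Mdc1 call was lost in 14 of the 15 fits without 1 library and that of Poll in 10. Those of Rnf8 and Rad17 were each lost in 3 of these fits and that of H2afx in 2. Of the 5 calls, only that of Rad17 held in the 3 limma fits. With only the groups compared, only that of H2afx held.

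H2afx, Rnf8, Mdc1 and Rad17 were called in the same direction after irradiation and with passage in Atm+/+ cells. Both comparisons use the same passage 2 libraries. The share of all genes called in the same direction in both is not given, so this overlap is not read as a property of the 4 genes. Changes for H2afx were -1.07 after irradiation and -0.61 with passage, those for Rnf8 were -1.38 and -0.91, those for Mdc1 were -0.43 and -0.40, and those for Rad17 were 0.94 and 0.99. None of the 13 homologous recombination genes passed with passage in edgeR (2 at an unadjusted p under 0.05), and Rad54l and Brca1 passed in DESeq2, with none in limma. DESeq2 called 32.5% of all genes and limma on log2(TPM + 1) 19.4%. Brca1 was at 2.10, 2.04 and 2.64 CPM at passage 8, below all passage 2 libraries and above all irradiated ones, with a change of -0.79 and an adjusted p of 0.0813. Libraries of the passages did not overlap for 4 of the 47 genes that were higher and 11 that were lower at passage 8, against 24.9% and 22.6% of all genes. Over the 47 genes the median change was -0.03, and over all genes it was 0.00. Of the 20 proliferation genes 9 fell, with Mki67 at -1.14, and their summed level at passage 8 was 315 to 376 CPM. Macrophage and endothelial markers fell over the same interval, the endothelial ones from 560 to 978 CPM to 7.49 to 9.76 CPM, and their part in the passage results was not tested.

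The number of calls with passage depended on single libraries. With Atm-/- passage 8 replicate 3 left out, 12 of the 47 were called (40.2% of all genes), and with replicate 2 of Atm+/+ passage 2 left out, 9 (35.2% of all genes). The count was 0 without Atm+/+ passage 8 replicate 3, 1 without Atm+/+ passage 2 replicate 1, 2 with replicate 3 of that group or replicate 1 of Atm+/+ passage 8 left out, and 3 where replicate 2 of Atm+/+ passage 8, any of the Atm-/- passage 2 libraries or any of the irradiated ones was left out. The share of all genes called was 11.7% in the fit that gave 0, 15.8% in the one that gave 1, 17.8% and 14.1% in those that gave 2, and 14.9% to 19.6% in those that gave 3. In the fit of 13 libraries 9 were called (40.1% of all genes), the 5 given before and Rad54b, Brca1 and Rad51ap1, which fell, and Trp53bp1, which rose.

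In Atm-/- cells none of the 47 genes passed between passage 2 and passage 8 in edgeR, where 13.0% of all genes did. An unadjusted p under 0.05 was found for 4 (Mdc1, Xrcc6, Palb2 and Bard1, all lower). In DESeq2 4 passed (Bard1, Palb2, Dna2 and Mdc1), where 20.01% of all genes did. In limma on log2(TPM + 1) 3 passed (Bard1, Rad54l and Palb2), where 13.2% of all genes did. The median change was -0.29 over the 47 and -0.08 over all genes. For 13 of the 47 genes all passage 8 libraries were below all passage 2 libraries, against 22.5% of all genes, and for 0 they were above, against 14.5%.

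Several of these values turn on Atm-/- passage 8 replicate 3. Bard1 was at 4.13, 3.63 and 5.16 CPM at passage 2 and at 2.91, 1.54 and 0 CPM at passage 8. Palb2, which links Brca1 to Brca2, was at 2.13, 1.98 and 1.83 CPM and at 1.02, 0.674 and 1.67 CPM. All passage 8 libraries of both genes were lower than those of passage 2. In the fit of 13 libraries 7 of the 47 were called, where 27.2% of all genes were. Palb2 (-1.19, edgeR adjusted p = 0.0094), Bard1 (-0.92), Blm (-0.78), Rad54l (-0.60) and Mdc1 (-0.36) fell, and Xrcc5 (0.48) and Rad9a (0.30) rose, with 2 libraries left at passage 8. Leaving out Atm-/- passage 8 replicate 3 alone gave 3 calls (15.02% of all genes), and leaving out replicate 2 gave 1 (17.4%). H2afx was at 45.4, 33.8 and 42.1 CPM at passage 2 and at 45.1, 34.4 and 42.3 CPM at passage 8, almost the same values in both groups, and its change was 0.01 (adjusted p = 0.987). Of the proliferation genes 5 fell in Atm-/- cells, with Mki67 at -0.97.

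Whether passage acted differently in the genotypes was tested as the difference of the passage effects, Atm-/- minus Atm+/+. None of the 47 passed in edgeR, where 4.43% of all genes did. An unadjusted p under 0.05 was found for 7. In DESeq2 4 passed (H2afx, Trp53bp1, Rad17 and Nhej1), where 19.9% of all genes did. In limma on log2(TPM + 1) 0 passed, where 4.82% of all genes did. Rad17 had the lowest p among the 47, with a difference of -1.25 (SE 0.39, edgeR adjusted p = 0.0666). In Atm-/- cells the replicates were at 13.4, 14.9 and 13.7 CPM early and at 11.2, 12.3 and 11.7 CPM late, so all passage 8 libraries were lower, whereas in Atm+/+ cells all were higher.

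Trp53bp1 was at 17.8, 19.4 and 9.29 CPM at passage 2 and 25.7, 21.0 and 28.0 CPM at passage 8 in Atm+/+ cells. In Atm-/- cells it was at 19.5, 22.3 and 23.2 CPM at passage 2 and 17.0, 19.9 and 10.9 CPM at passage 8. The Atm+/+ groups did not overlap and the Atm-/- groups did, and the difference was -1.11 (SE 0.37, edgeR adjusted p = 0.072). Both libraries that stood apart are the lowest of their groups for Trp53bp1. Without them the differences were -0.94 for Rad17 (SE 0.24, edgeR adjusted p = 0.0231) and -0.65 for Trp53bp1 (SE 0.18, edgeR adjusted p = 0.0326), the only calls of the 47 in the 13 libraries, where 13.8% of all genes were called. For H2afx the difference was 0.62 (adjusted p = 0.0924), and for Nhej1, a scaffold of end joining, 1.63 (adjusted p = 0.0774). Both libraries that stood apart were the highest of their groups for Nhej1 relative to total counts. In Atm-/- passage 8 replicate 3 it had 150 of 13.6 M counts. Replicates 1 and 2 had 246 of 34.0 M and 169 of 31.0 M. Without the pair Nhej1 was not called. Without Atm+/+ passage 2 replicate 2, 7 of the 47 were called in this comparison (24.7% of all genes), and without Atm-/- passage 8 replicate 2, 3 were (15.9%).

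**Figure D4:**
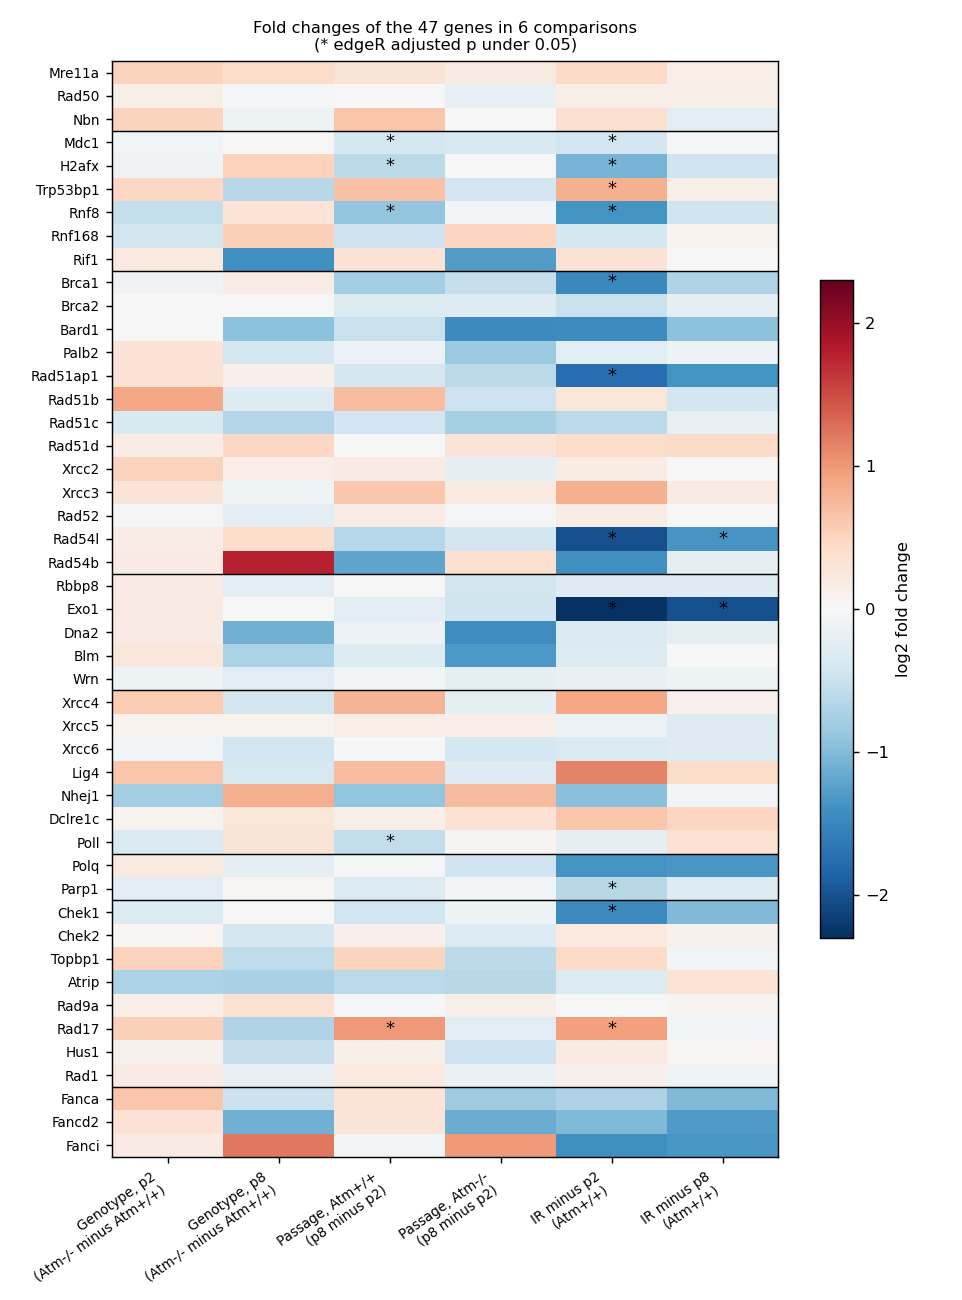
Log2 fold change of the 47 genes (rows, in blocks by role) in 6 comparisons (columns), red for higher and blue for lower, with a star where the edgeR adjusted p was under 0.05. The stars stand in the columns for irradiation against passage 2 (11), passage in Atm+/+ cells (5) and irradiation against passage 8 (2), and the columns for genotype and for passage in Atm-/- cells have none.

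Between genotypes at passage 2, none of the 47 genes passed in edgeR, DESeq2 or limma. Of all genes, edgeR called 0.969%, DESeq2 5.05% and limma on log2(TPM + 1) 1.37%. An unadjusted p under 0.05 was found for 2, Mre11a and Rnf8. Mre11a, the nuclease of the MRN complex, was at 11.3, 12.1 and 7.26 CPM in Atm+/+ cells and at 14.6, 14.5 and 14.6 CPM in Atm-/- cells. The groups did not overlap and the difference was 0.51 (SE 0.20), with an edgeR adjusted p of 0.268. Libraries of the genotypes did not overlap for 3 genes that were higher and 3 that were lower in Atm-/- cells, against 13.7% and 12.1% of all genes. The median difference was 0.18 over the 47 and 0.04 over all genes, and the 47 had a median of 0.00 in the fit of 13 libraries. That fit called none of the 47 and 5.35% of all genes. Without Atm+/+ passage 2 replicate 2, 1 of the 47 and 9.58% of all genes were called.

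At passage 8 none of the 47 differed between genotypes in edgeR, where 9.32% of all genes did. An unadjusted p under 0.05 was found for 6. In DESeq2 2 passed (H2afx and Rad54b, both higher), where 19.8% of all genes did. In limma on log2(TPM + 1) 0 passed, where 7.92% of all genes did. H2afx was at 30.7, 28.1 and 25.6 CPM in Atm+/+ cells and at 45.1, 34.4 and 42.3 CPM in Atm-/- cells. Every Atm-/- library was above every Atm+/+ library, and the difference was 0.53 (SE 0.16, edgeR adjusted p = 0.0525). Rad17 was below the Atm+/+ libraries in every Atm-/- library and differed by -0.69 (adjusted p = 0.121). Rad54b differed by 1.77 (SE 0.62, adjusted p = 0.0851), with 1.37, 1.67 and 5.17 CPM in Atm-/- cells against 0.976, 0.475 and 0.878 CPM, and the highest value was that of the library that stood apart. Of the 47 genes, 4 were called where replicate 3 of Atm+/+ passage 2 was left out, 2 where replicate 2 of that group or of Atm-/- passage 8 was, and 1 where replicate 3 of Atm-/- passage 8 was. The shares of all genes called in these fits were 18.3%, 12.8%, 17.7% and 9.67%.

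Without that pair, 6 of the 47 differed at passage 8, where 25.0% of all genes did. Rad9a (0.50), H2afx (0.52), Xrcc5 (0.40) and Rad54b (0.97) were higher in Atm-/- cells, and Rad17 (-0.67) and Trp53bp1 (-0.41) were lower, with edgeR adjusted p from 0.00501 to 0.0466. Libraries did not overlap for 6 of the 47 genes that were higher and 11 that were lower in Atm-/- cells, against 16.8% and 23.0% of all genes. Of the proliferation genes 2 were higher in Atm-/- cells at passage 8, the replication helicase subunits Mcm6 (0.83) and Mcm2 (0.68). Markers of other cell types moved with this comparison as well. Mesothelial markers were higher in Atm-/- passage 8 cells for 4 of 5 tested, at a summed 28.2 to 105 CPM against 11.2 to 12.3 CPM, and endothelial markers for 4 of 8, at 14.8 to 53.04 CPM against 7.49 to 9.76 CPM. Of 8 smooth muscle and pericyte markers 5 were lower and 1 was higher, with summed levels of 5031 to 6782 CPM against 10230 to 10759 CPM. Of the 10 fibroblast markers 8 were lower and 1 was higher, and 3 of 10 macrophage markers were lower. The part of these cell types and of the proliferation genes in these values was not tested.

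Beyond the 47, a list of 76 further repair genes was read in the same fit, of which 74 were tested. After irradiation 18 fell and 4 rose, where 16.5% of all genes fell and 11.0% rose. The total of 22 dropped to 7, 9 and 9 with irradiated replicate 1, 2 or 3 left out, and to 11 and 13 with replicate 1 or 3 of Atm+/+ passage 2 left out, fits in which 14.4% to 19.04% of all genes were called. Rpa2, a subunit of the single-strand binding protein RPA, was at 26.8, 28.0 and 30.1 CPM in Atm+/+ passage 2 cells and at 10.6, 11.7 and 11.7 CPM after irradiation, without overlap, and changed by -1.32 (SE 0.15, edgeR adjusted p = 7.48e-05). Mad2l2, a shieldin subunit that acts with Trp53bp1, changed by -0.89, and Xrcc1, a scaffold of single-strand break repair, by -0.70. Those that rose were the nuclease Fan1 (2.53), Parp3 (0.55), Wdr48 (0.53) and Smc6 (0.51). Fan1 was at 0.279, 1.07 and 0.339 CPM and at 3.74, 3.12 and 3.10 CPM after irradiation, above every unirradiated library of the series.

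With passage in Atm+/+ cells 14 of the 74 fell and 1 rose, where 13.5% of all genes fell and 9.80% rose. The total of 15 moved to 24 where replicate 2 of Atm+/+ passage 2 or replicate 3 of Atm-/- passage 8 was left out, and to 7, 9 and 5 where replicate 1, 2 or 3 of Atm+/+ passage 8 was, with the shares of all genes given above for these fits. Rpa2 was at 12.9, 14.4 and 13.9 CPM at passage 8 and changed by -1.04 (edgeR adjusted p = 0.000186), Timeless, which travels with the replication fork, by -1.63 and Mad2l2 by -0.74, and Smc6 rose by 0.71. In Atm-/- cells 3 fell with passage, Timeless (-1.13), the Chek1 adaptor Clspn (-1.12) and Mad2l2 (-0.40), where 13.0% of all genes were called. Between genotypes at passage 8 Nsmce1 (0.65), Nsmce2 (0.60) and Shld1 (0.86) were higher in Atm-/- cells and Fance (-0.78) was lower. That test called 9.32% of all genes. Nsmce1 and Nsmce2 belong to the SMC5/6 complex and Shld1 to shieldin. At passage 2 none of the 74 differed in edgeR (10 at an unadjusted p under 0.05) or limma, and 2 did in DESeq2. The edgeR test called 0.969% of all genes there, DESeq2 5.05% and limma on log2(TPM + 1) 1.37%. Against Atm+/+ passage 8, Clspn (-1.18) and Xrcc1 (-0.47) were lower in the irradiated cells and Rnf169 (0.66) was higher, where 6.89% of all genes were called. Over the fits without 1 library the calls among the 74 ranged from 0 to 5 for passage in Atm-/- cells, from 0 to 9 for genotype at passage 8 and from 0 to 7 for irradiation against passage 8. The shares of all genes called in these fits ranged from 7.92% to 19.1%, from 3.15% to 18.3% and from 3.86% to 12.6%.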

How the data were processed

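Total RNA of 15 samples went into TruSeq RNA libraries, per the labels. Per the submitters' processing notes, featureCounts and SAMtools 1.3.1 were used with mm10; which aligner and which strand setting were used is not given in the sources used here. The authors deposited whole-number counts for 48440 genes, TPM for 48082 genes, and TPM for 15515 of these genes, chosen by a filter that no source used here describes. Gene IDs were named from GENCODE vM21, which left 382 without a symbol.

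Counts were filtered with filterByExpr by group, scaled by TMM and fitted with edgeR 4.0.16 (quasi-likelihood, robust, 1 mean per group, 15 libraries, R 4.3.3), with Benjamini-Hochberg adjustment over 18167 genes and a threshold of 0.05. The script was tested on simulated data. SE was taken from the fold change and the F statistic (size of the log2 change over root F). Library totals of 13.6 to 39.2 M counts limit the precision of genes under about 1 CPM. Genes are described where they passed, where their groups did not overlap or where the pair of libraries that stood apart changed the call. The members, the lists and the genes named were chosen with earlier results of these data known.

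Alternatives were DESeq2 1.42.0, DESeq2 size factors, no filter and a stricter filter (1 CPM or more in 3 libraries, mean count 50 or more). Others were only the groups compared, the replicate number as a block, and each library left out. In the full TPM table, limma 3.58.1 was fitted on log2(TPM + 1) and log2(TPM + 0.1) for genes at 0.5 TPM or more in 3 libraries. It was also fitted on log2(TPM + 1) of the deposited subset without a further filter. A fit of 13 libraries was added after the data were seen.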

Additional observations from a re-analysis of the deposited data

How the results depend on the processing

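Of 18 calls of single genes, none reversed over 447 alternative values: 333 kept the call and 114 lost it. The number of the 47 genes called after irradiation was 11, and moved to 7 with only the groups compared (21.6% of all genes) and to 21 in the fit of 13 libraries (46.3%). For passage in Atm+/+ cells it was 5, and moved to 3 with no filter (11.3% of all genes), 1 with only the groups compared (15.9%), 8 in DESeq2 (32.5%), 1 in each of the 3 limma fits (16.5% to 21.3%) and 9 in 13 libraries (40.1%). For irradiation against passage 8 it was 2, and moved to 1 with no filter (3.32% of all genes), 17 with only the groups compared (36.4%), 0 in limma on log2(TPM + 1) in the full table and the subset (5.93% and 6.35%), 1 on log2(TPM + 0.1) (5.49%) and 14 in 13 libraries (25.5%). For passage in Atm-/- cells it was 0, and moved to 4 in DESeq2 (20.01% of all genes), 3 in limma on log2(TPM + 1) (13.2%), 2 in the subset (14.3%) and 7 in 13 libraries (27.2%). For genotype at passage 8 it was 0, and moved to 1 with the stricter filter (13.7% of all genes), 2 in DESeq2 (19.8%) and 6 in 13 libraries (25.0%). For the difference of the passage effects it was 0, and moved to 4 in DESeq2 (19.9% of all genes) and 2 in 13 libraries (13.8%). The cause of these moves was not tested. Fits without 1 library gave 7 to 20 genes for irradiation, 0 to 12 for passage in Atm+/+ cells, 0 to 5 for irradiation against passage 8, 0 to 3 for passage in Atm-/- cells, 0 to 1 and 0 to 4 for genotype at passage 2 and 8, and 0 to 7 for the difference of the passage effects. With the replicate number as a block, 8 genes were called after irradiation, 2 with passage in Atm+/+ cells, 1 against passage 8, 1 for genotype at passage 8 and 0 in the other 3 comparisons. Same-numbered libraries had correlations between -0.20 and 0.22 after group means were removed. With 3 libraries per group, these values cannot decide whether libraries with the same number share a strain. Every library correlated best with its own number only between Atm+/+ passage 8 and irradiated cells. Counts limit the lowest genes, such as Atrip and Rad51b, most.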
